A study of Homo sapiens with 74 samples.

Results

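ZNF574 is a zinc-finger protein (ZFP) of the C2H2 type, a large class of chromatin proteins in which each finger can contact a few bases of DNA. Its Cut&Run peaks against the V5 mock IP are described here, from both lists that carry its name. Replicate 1 held 896 peaks and replicate 2 held 756, together 1652 of the 92122 peaks and 2 of the 72 lists analysed. All peaks were used. Overlapping peaks were merged, and 522 regions held a peak of both replicates, 360 a peak of replicate 1 alone and 220 a peak of replicate 2 alone. Apart from the coding exon of ZNF574 and from EEF1A1, 520 regions were found in both replicates, and these are the regions described below. Of the 36731 merged regions of all 72 lists, 1.25% held a ZNF574 peak of both replicates.

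Cut&Run maps where a protein sits on chromatin by sequencing DNA that an antibody-tethered nuclease has cut loose. The study profiled 36 ZFPs in this way, each in 2 biological replicates that came from separate wells. The cells of every list were HEK293T, a human embryonic kidney line that is easily transfected. The ZNF574 cells had received a plasmid with the ZNF574 ORF, a C-terminal V5 tag and the EF1-alpha promoter, and were harvested after 48 h without crosslinking. The cells of the other 35 ZFPs had received another ORF in the same vector, and batch and mock IP may also differ between ZFPs. The control was an un-transfected sample taken through the same V5 immunoprecipitation, so the transfected cells had received plasmid DNA and the control cells had not. The protein was therefore overexpressed and tagged, and endogenous ZNF574 was not assayed. Lists of the mock IP itself were not analysed here. The study gives an approximate read number per sample. Neither the exact reads nor the batch of a library could be read from the labels, so the exact depth behind a fold is unknown.

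Most of the 520 regions lay in repeated DNA. Tandem repeats are stretches in which a unit follows itself head to tail. Minisatellites have short units and are dense near the ends of human chromosomes, pericentromeric satellites II and III are built on the pentamer ATTCC, and telomeres on the hexamer TTAGGG. Larger units also form arrays. The 5S rRNA genes, transcribed by RNA polymerase III, lie in a cluster on chromosome 1, the 45S rRNA genes, transcribed by RNA polymerase I, form the nucleolus organisers, and the D4Z4 macrosatellite near the ends of chromosomes 4 and 10 carries copies of DUX4, a homeobox gene that is silent in most somatic cells. Read aligners place a read from such DNA on 1 of several nearly identical copies, so a coordinate given below marks a copy in the hg38 assembly and not necessarily the copy from which the read came.

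The sequences below show the kinds of DNA under these regions. Each is the 201-base window around the summit of replicate 1, read from the plus strand of hg38. The windows near EHMT1, in FOXP1 and near RPL23AP4 are minisatellites, and the stretch from the summit that is as long as the best repeat unit is in capitals. At EHMT1 that stretch spans more than 1 copy of a shorter unit.
EHMT1 intron, chr9:137721137-137721337: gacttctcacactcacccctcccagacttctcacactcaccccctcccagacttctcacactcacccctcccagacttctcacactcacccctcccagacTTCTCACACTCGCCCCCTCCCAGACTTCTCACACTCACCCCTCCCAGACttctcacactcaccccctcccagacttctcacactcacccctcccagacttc
FOXP1 intron, chr3:71435725-71435925: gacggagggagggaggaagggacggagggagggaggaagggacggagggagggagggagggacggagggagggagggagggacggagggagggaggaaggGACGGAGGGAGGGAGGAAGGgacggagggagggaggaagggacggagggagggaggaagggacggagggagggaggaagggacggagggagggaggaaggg
Near RPL23AP4, chr21:46698970-46699170: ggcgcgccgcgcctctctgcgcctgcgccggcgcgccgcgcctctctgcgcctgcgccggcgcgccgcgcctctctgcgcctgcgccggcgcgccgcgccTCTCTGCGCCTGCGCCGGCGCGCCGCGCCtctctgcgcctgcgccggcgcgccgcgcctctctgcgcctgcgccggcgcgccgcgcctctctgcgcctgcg

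The window in MICAL3 holds 9 telomere hexamers, which are in capitals, and the window on chromosome 1 shows a pericentromeric satellite with its 11 pentamers in capitals.
MICAL3, chr22:17876990-17877190: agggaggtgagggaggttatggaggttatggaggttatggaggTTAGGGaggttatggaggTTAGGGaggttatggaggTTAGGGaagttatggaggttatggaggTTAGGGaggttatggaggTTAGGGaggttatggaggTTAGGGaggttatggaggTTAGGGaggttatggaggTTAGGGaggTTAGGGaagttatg
Pericentromere of chromosome 1, chr1:143220245-143220445: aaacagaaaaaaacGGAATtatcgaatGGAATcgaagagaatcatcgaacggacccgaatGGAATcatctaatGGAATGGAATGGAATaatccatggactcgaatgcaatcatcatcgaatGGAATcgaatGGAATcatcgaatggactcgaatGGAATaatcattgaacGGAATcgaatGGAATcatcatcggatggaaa

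In the next windows the 21 bases centred on the summit are in capitals. They come from the 5S rRNA array beside RNA5S14, from the D4Z4 copy DUX4L9, from a region on chromosome 22 that was called for no other ZFP, and from an unlocalised contig of chromosome 14 with the second highest lower fold.
5S array, chr1:228640011-228640211: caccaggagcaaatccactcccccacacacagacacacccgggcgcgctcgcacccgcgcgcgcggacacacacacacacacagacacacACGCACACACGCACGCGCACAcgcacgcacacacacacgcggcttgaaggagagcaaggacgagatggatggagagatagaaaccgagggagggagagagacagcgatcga
DUX4L9, chr4:190021620-190021820: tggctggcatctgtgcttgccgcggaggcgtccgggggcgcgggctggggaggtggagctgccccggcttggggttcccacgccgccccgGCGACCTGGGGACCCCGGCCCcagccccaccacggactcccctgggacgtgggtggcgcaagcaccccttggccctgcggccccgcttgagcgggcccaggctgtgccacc
Chromosome 22, chr22:12173572-12173772: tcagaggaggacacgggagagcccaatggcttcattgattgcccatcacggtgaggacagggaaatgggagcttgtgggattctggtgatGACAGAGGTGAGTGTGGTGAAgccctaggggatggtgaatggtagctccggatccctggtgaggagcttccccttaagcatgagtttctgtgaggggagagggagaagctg
Contig, chr14_KI270724v1_random:3214-3414: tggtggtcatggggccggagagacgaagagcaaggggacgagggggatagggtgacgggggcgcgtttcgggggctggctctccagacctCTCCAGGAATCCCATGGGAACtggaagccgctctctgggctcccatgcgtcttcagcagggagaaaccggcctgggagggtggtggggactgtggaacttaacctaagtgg

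The strongest peak in both lists lay on the coding exon of ZNF574 itself, the gene whose ORF the plasmid carried. It spanned chr19:42078606-42081362 in both replicates, 2757 bp with the same bounds, and its fold over the mock IP was 2205 in replicate 1 and 2198 in replicate 2. The coding sequence ran from 42078607 to 42081294 on the plus strand, so the peak began 1 bp before the start codon and ended 68 bp past the last coding base. It left the promoter uncovered, since the start codon lies 2441 bp downstream of the transcription start site (TSS). The 60 bases around the start codon, in capitals, show the left edge of the peak.
ZNF574 coding start, chr19:42078587-42078646: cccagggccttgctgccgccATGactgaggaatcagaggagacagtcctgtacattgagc
No ZNF574 peak lay on a coding exon of any other of the 36 tagged genes. The label was also checked in the other lists, and ZNF574 was among the 31 of 36 ZFPs whose own gene had the highest coding-exon peak in both replicates, apart from EEF1A1 and among peaks with a fold of at least 20. In the libraries labelled U2AF1 that gene was USP39 instead.

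EEF1A1, whose promoter drives the ORF on each plasmid, carried the second strongest peak. It spanned chr6:73520048-73521295 with folds of 1010.05 and 997, and all 35 other ZFPs had a peak there in both replicates, with a fold over 20 in 70 of the 72 lists. The ORF peak and the EEF1A1 peak set the scale for the rest of the lists. Of 896 peaks in replicate 1, 7 reached a fold of 10 (0.781%, exact 95% interval 0.315 to 1.60), and of 756 in replicate 2, 4 did (0.529%, 0.144 to 1.35). The median fold was 3.85 and 3.66. These intervals cover counting error only.

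Some lists of other ZFPs also held peaks on the ZNF574 coding exon, at folds of 3.77 to 7.42. The lower of the ZNF574 folds was 296 times the highest of these. They were 15 peaks in 9 lists of 6 ZFPs, found in both replicates for RNF14, ZNF706 and ZNF800 and in 1 replicate for CISD1, GTF3C4 and APEX2. In ZNF706 replicate 2 the leftmost of them began at 42078606, the same base as the ZNF574 peak. Whether these low peaks come from DNA of the ZNF574 plasmid in those libraries was not tested.

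**Figure D1:**
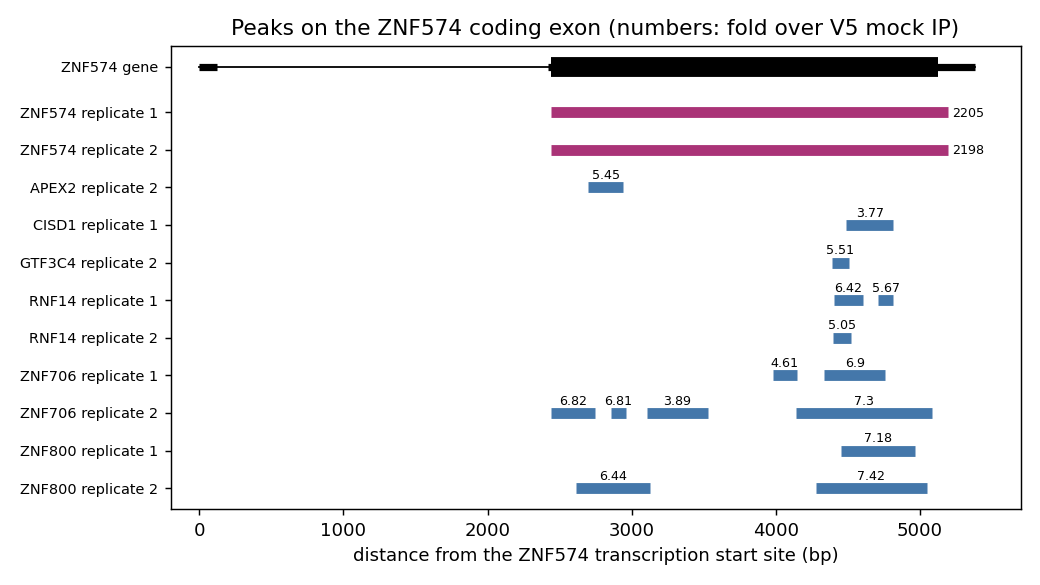
Peaks on the ZNF574 coding exon in every list that had 1, by distance from the TSS in bp, with the exons (thin) and coding sequence (thick) above and the fold over the mock IP beside each bar. The ZNF574 peaks cover the whole coding sequence in both replicates, at 2205 and 2198, while the peaks of 6 other ZFPs cover parts of it at 3.77 to 7.42.

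The values below describe regions chosen because both replicates called them, so their closeness between replicates is not a test, and the regions of a single list do not enter it. The lower of the 2 folds of a region ranged from 1.39 to 8.97, with a median of 3.30, and 98 of 520 regions had a lower fold of at least 5. The folds differed by less than 1.5 times in 487 regions (93.7%). The log2 ratio of replicate 1 over replicate 2 had a median of 0.03 and an SD of 0.29 over regions. Pearson's r of the log2 folds was 0.87 over the 520 regions, which share their libraries and controls. Summits of the replicates lay a median of 10 bp apart and within 100 bp in 449 regions (86.3%). The median width was 296 bp for all 522 regions found in both replicates, 151 bp for those of replicate 1 alone and 148.5 bp for those of replicate 2 alone. A merged region spans at least 2 peaks, and wider peaks overlap more easily, so these widths are not a comparison. The median fold did not fall in the regions of a single list. The higher fold of a region had a median of 3.83 where both replicates called it, 4.31 where only replicate 1 did and 4.07 where only replicate 2 did, while the median −log10 q was 11.5, 4.34 and 4.26.

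**Figure D2:**
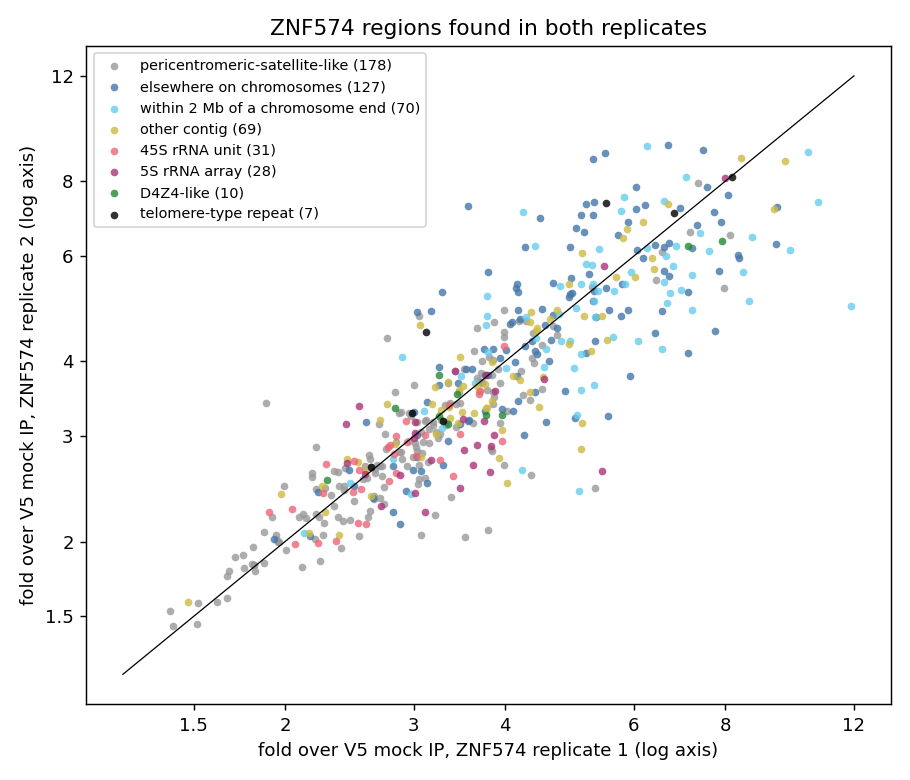
Fold over the V5 mock IP of the 520 ZNF574 regions in replicate 1 and replicate 2, both on log axes, coloured by the kind of DNA, with the line of equal folds. The lower folds lie between 1.39 and 8.97, satellite-like regions sit mostly at low folds and regions near chromosome ends and elsewhere on the chromosomes reach higher ones.

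The regions were sorted into kinds by sequence and place. Pericentromeric-satellite-like regions, with at least 5 ATTCC or GGAAT pentamers within 100 bp of a summit, were the most numerous, with 178 of 520 (34.2%). Each region was given a single kind, so the next counts leave out satellite-like, rRNA, D4Z4-like and telomere-type regions in those places. Near chromosome ends, within 2 Mb, lay 70 others, and 69 others were on contigs that are not part of the assembled chromosomes. Whatever their kind, 406 of the 520 regions lay on assembled chromosomes, and 88 of these within 2 Mb of an end. The 45S rRNA unit held 31, the 5S rRNA array and its fragments 28, D4Z4-like sequence 10 and telomere-type repeats 7. The remaining 127 lay elsewhere on the assembled chromosomes. This remainder also held centromeric copies such as chr1:123480387-123480798, whose 31-base stretches had a median of 3785 copies. These kinds, and the limits that define them other than the pentamers, were chosen after the values were seen, so their counts are a description with no test.

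Tandem repetition was frequent in the satellite-like, telomere-type and chromosome-end regions and elsewhere on the chromosomes, and rare or absent in the other kinds. A window was counted as tandem when at least 70% of its bases matched the base 1 unit away, for the best unit of 2 to 100 bases, which can span several copies of a shorter one. By that measure 311 of 520 regions were tandem (59.8%), against 0.489% of windows taken every 100 kb along the genome. The share was 89.9% in satellite-like regions, 78.6% near chromosome ends and 60.6% elsewhere on the chromosomes. The median unit was 49 bases near chromosome ends and 43 elsewhere. The tandem share was 14.5% on other contigs (10 of 69), 6.45% in the 45S unit, 0 of 28 in the 5S kind and 0 of 10 in D4Z4-like regions. The units of the last 3 arrays are longer than the limit. The median GC content was 63.2% near chromosome ends, 62.7% elsewhere on the chromosomes, 71.6% in the 5S array and 73.9% in D4Z4-like regions, against 39.8% in the genome windows and 41.8% in satellite-like regions. A median 31-base stretch of a region occurred 6 times in hg38, and 84.0% of the regions had a median of 2 or more copies, against 16.4% of genome windows.

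Among all 36 ZFPs, ZNF574 had the highest share of tandem windows among peaks that were not satellite-like, with 47.0% in replicate 1 and 49.6% in replicate 2 (mean 48.3% ± 1.88, SD, n = 2). RNF14 followed with 48.0% and 47.9%, GTF3C4 with 51.7% and 44.1%, and ZNF706 with 39.5% and 40.04%. ZNF574, RNF14 and GTF3C4 did not differ beyond their replicates, whose ranges overlapped. CTCF, an insulator protein with a long known motif, had the lowest share, with 2.78% and 2.03%.

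Among the 520 regions, the highest lower fold was on a minisatellite in an intron of EHMT1, which encodes a histone H3 lysine methyltransferase. The region chr9:137721177-137721348 was 172 bp wide, lay 4250 bp from the nearest EHMT1 TSS and had folds of 10.4 and 8.97. Lists of 3 other ZFPs held a peak there, and no other ZFP had it in both replicates. A second EHMT1 intron region, chr9:137845498-137846292, had folds of 5.26 and 5.79 on a perfect repeat with a unit of 62 bases, and was called for 22 other ZFPs.

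Of the 20 highest regions that were not satellite-like, with lower folds of 6.59 to 8.97, 10 were tandem by the 70% measure and 15 had a median of 2 or more copies. They lay in introns (9), in an exon (1) or outside any annotated gene (10), of which 4 were on contigs for which the annotation used lists no gene. Only 1 of the 20, in MICAL3, lay within 1 kb of the TSS of a protein-coding gene. In FOXP1, a forkhead transcription factor, an intron region at chr3:71435547-71435921 had folds of 7.46 and 9.03 on the 20-base unit printed above. In FOXN3, another forkhead gene, chr14:89360804-89362139 had 6.68 and 9.20 on a 12-base unit. An intron of TMEM242, a mitochondrial protein gene, held chr6:157311328-157312205 with 9.41 and 7.24. This was the most widely shared of the 20 after the chromosome 5 end, called for 28 other ZFPs and for 22 in both replicates. The region near the ribosomal protein pseudogene RPL23AP4, chr21:46698864-46699267, had 10.7 and 7.40. Its 29-base unit matched its neighbour in 100% of bases and was 86.1% GC.

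The region chr19:36309393-36309510 in the lncRNA gene LINC00665 had folds of 8.06 and 7.59 over 118 bp, with a median of 28 copies of its 31-base stretches in hg38, and was called in lists of 2 other ZFPs. A region of 112 bp at chr21:9815792-9815903, in the pseudogene LINC01667, had 7.73 and 7.11. The region chr21:45055043-45055157, 17082 bp from the pseudogene SSR4P1, had 7.07 and 8.12. The region chr17:24421413-24421543 lay 1716998 bp from the nearest gene, had a median of 990 copies and had 6.95 and 7.22. None of these was tandem by the 70% measure. The region chr17:10846661-10846896 was, on a 39-base unit 8574 bp from PIRT, with 7.56 and 7.84. Further tandem regions were chr15:30173137-30173317 in an unnamed lncRNA gene, with 7.89 and 6.85, and chr7:1272191-1272746 39319 bp from UNCX, a homeobox gene, with 6.59 and 7.41.

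Regions near chromosome ends were frequent. On assembled chromosomes 84 of 257 regions that were not satellite-like lay within 2 Mb of an end (32.7%), spread over 32 chromosome ends, against 2.78% of genome windows. Those classed as chromosome-end regions had the highest median fold of the kinds, with a lower fold of 4.81, and the widest median, 415 bp. The widest was chr7:158146988-158149152 in an intron of PTPRN2, a receptor-type phosphatase of secretory granules, which spanned 2165 bp with folds of 2.97 and 2.40 on a 38-base unit. A second PTPRN2 region, chr7:158360149-158360867, had 4.99 and 4.92. In BRF1, which encodes a subunit of the RNA polymerase III initiation factor TFIIIB, chr14:105230009-105231925 spanned 1917 bp with 4.74 and 4.79, and chr14:105233234-105233975 had 6.84 and 6.24. Neither BRF1 region was tandem by the 70% measure.

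In all, 85 regions lay inside 70 protein-coding genes, and 10 of these genes held more than 1. TTC34, on the short arm of chromosome 1, held 11, all in introns between 2652237 and 2758803. Their folds ranged from 2.64 to 4.65 in replicate 1 and from 2.14 to 6.94 in replicate 2, and their best repeat units were of 40, 80 or 81 bases. SMOC2, a matricellular calcium-binding protein gene, held 2 perfect or nearly perfect minisatellites, with folds of 6.41 and 6.26 at chr6:168654630-168655125 and of 3.56 and 7.26 at chr6:168561360-168561718. TTC34 and SMOC2 were chosen with their values in view. The 8-mer CACCACCA, searched on both strands and also chosen after the values were seen, was in 42 of the 266 windows near ends, elsewhere on chromosomes and on contigs (15.8%), among them 31 of 142 tandem windows (21.8%). It was in 12.3% of the 6796 tandem peaks of the other ZFPs that were not satellite-like and in 2.49% of genome windows. Those peaks were counted list by list, so a place can recur, and did not need both replicates. The shares for ZNF574 and for the other ZFPs are therefore not a like comparison.

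Few regions were at promoters. Within 1 kb of a TSS lay 122 of 896 peaks in replicate 1 (13.6%, exact 95% interval 11.4 to 16.04) and 88 of 756 in replicate 2 (11.6%, 9.44 to 14.1), against 7.002% of genome windows. Distances ran from the nearest edge of a peak but from the middle base of a genome window. Measured from the summit, the mean share of the 2 lists was 11.4%. Of the 520 regions 65 were within 1 kb of a TSS, and 43 of those belonged to the rRNA and D4Z4 arrays. Regions on contigs could not count here, since the annotation used lists no gene on them. Counted by gene, 61 of 62700 annotated genes (0.0973%) had a peak within 1 kb of a TSS in both replicates, and 12 of 20046 protein-coding genes (0.0599%) did. EEF1A1 was among the 12.

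MICAL3, a monooxygenase that acts on the actin cytoskeleton, had the highest of these promoter-proximal regions. It lay at chr22:17877047-17877518, inside an intron 175 bp from a TSS, on telomere-like hexamers, with folds of 8.17 and 8.13. The others described here were lower. TMEM216, a ciliary transition-zone protein gene, had 4.91 and 6.21 at chr11:61391296-61391780. TRPM2, a calcium-permeable channel gene, had 4.89 and 5.12 at chr21:44369605-44369813. POTEH had 4.16 and 4.87 at chr22:15689405-15689671. SH2B1, an adaptor of insulin and leptin signalling, had 4.15 and 5.39 at chr16:28863543-28863794, on a coding exon that also holds a TSS.

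SNX16, a sorting nexin gene, had 3.98 and 4.24 in an intron 117 bp from a TSS. FOXK2, a forkhead gene, had 3.10 and 3.30 at chr17:82586288-82586457. The mucin genes MUC6 and MUC3A, whose coding exons are themselves repeated, had 2.89 and 4.06 at chr11:1016838-1016982 and 2.16 and 2.04 at chr7:100957738-100958895. ADAP1, an ArfGAP gene, had 5.04 and 2.43 at chr7:905612-906497, and its pair of folds differed by more than 2 times. ADAP1 and MUC3A were called for 31 other ZFPs each, and TRPM2 and SNX16 in lists of 2.

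Genes of other pathways were looked up by list. The lists were the U1 snRNA genes, the other spliceosomal and U7 snRNA genes, the small RNA genes of RNA polymerase III, heat shock chaperones, immediate early genes, ribosomal proteins, ribosome assembly and nucleolar genes, translation factors, splicing and nuclear speckle genes, replication-dependent histones, snoRNA host genes and the ZNF genes of chromosome 19. Together 570 of their genes were found in the annotation. Only ZNF787, a chromosome 19 zinc-finger gene, had a peak within 1 kb of a TSS, in replicate 1 alone. EEF1A1 had peaks in both replicates but is not on the translation factor list. The 5S rRNA genes and pseudogenes, which had 27 of the 28 regions of the 5S kind within 1 kb of a TSS, are not on the list of RNA polymerase III genes. The other 11 lists had 0 genes with such a peak in either replicate, and 0 of 570 had 1 in both, while 0.204% of all annotated genes had such a peak in either replicate.

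The 5S kind held 28 regions, 25 in the 5S rRNA cluster and 3 in fragments outside it, more than for any other ZFP. CISD1 had 13, RNF14 12 and GIN1 8 by the same rule. Counted by list, ZNF574 had 44 and 34 peaks on such sequence, CISD1 35 and 14 and RNF14 18 and 28. At 24 of the 28 regions RNF14 had a peak in at least 1 list. The 17 annotated 5S genes, RNA5S1 to RNA5S17, lie head to tail on the minus strand over 35.9 kb of chromosome 1, from 228610268 to 228646158, with a median spacing of 2241 bp. In that array replicate 1 had 40 peaks beside 16 of the genes and replicate 2 had 30 beside 15. Folds ranged from 2.04 to 4.53 in replicate 1 (median 3.14) and from 2.24 to 3.86 in replicate 2 (median 2.86). By the lower fold, the highest region inside the array was beside RNA5S14, at chr1:228640050-228640157, with 3.77 and 3.80. The region by RNA5S16, chr1:228644526-228644634, had 4.53 and 3.74. Of the 3 fragments outside the array, those by the pseudogene RNA5SP162 had 7.999 and 8.09 at chr1:228557673-228558132 and 5.46 and 5.77 at chr1:228557309-228557443, and the third had 5.43 and 2.62 at chr1:228556436-228556786.

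Summits recurred at the same places of successive 5S units and stayed out of the genes. No summit of either replicate lay within the 119 bp of a 5S gene. Upstream of the genes, 16 summits lay 645 to 670 bp from the start of the nearest gene and 17 lay 70 to 130 bp from it. Downstream, 6 lay at 560 to 570 bp and 10 at 740 to 780 bp. These 4 places, chosen after the values were seen, held 49 of the 70 summits in 139 bp, which is 6.20% of a unit. Both replicates had summits in each of them. The units are nearly identical, with a median of 17 copies of a 31-base stretch, so summits in neighbouring units may hold reads of the same sequence and are not independent.

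**Figure D3:**
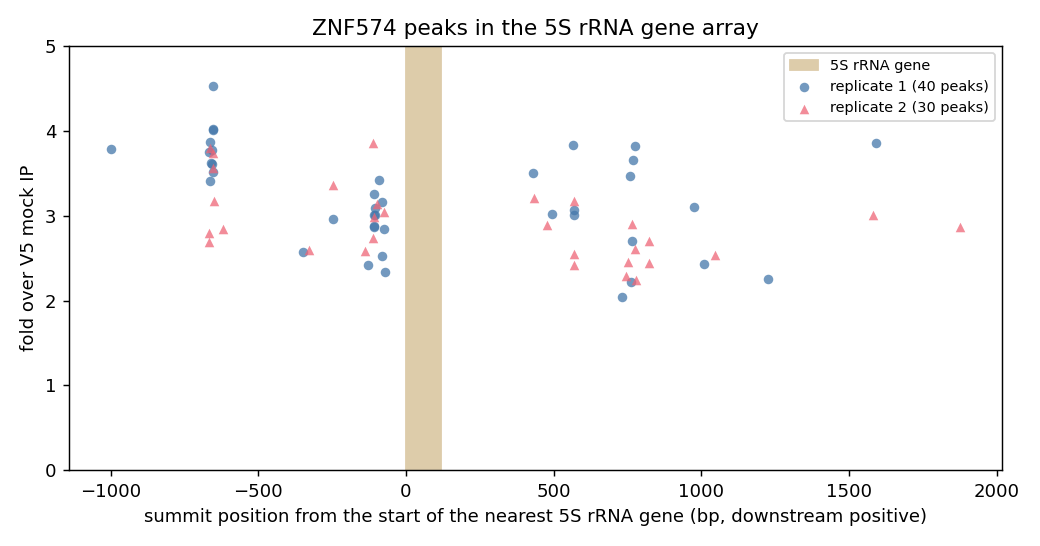
Position of each ZNF574 peak summit in the 5S rRNA array, in bp from the start of the nearest 5S gene with downstream positive, against the fold over the mock IP for replicates 1 and 2. The 5S gene is shaded and holds no summit, and 49 of 70 summits gather in 4 narrow places beside it.

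The 45S rRNA unit held 31 regions, 14 of them on chromosome 21. Their folds were low, with a median lower fold of 2.60. The highest, with a lower fold of 3.98, was the SNX16 region, which shares sequence with the unit but lies elsewhere. The region chr21:8402515-8402884 had 3.69 and 3.53. Regions at chr21:8238336-8238784 and chr21:8465915-8466392 lay 26118 and 26467 bp downstream of the 5.8S genes RNA5-8SN2 and RNA5-8SN1, in the spacer between transcription units, with folds of 3.25 and 2.74 and of 3.35 and 3.38. Counted by sequence alone, ZNF574 had 32 regions on the 45S unit, while 11 other ZFPs had more, 1 had as many and 23 had fewer. CTCF had 65, SNRPC 49 and RNF14 11.

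D4Z4-like regions numbered 10, against 6 for RNF14, 4 for ZNF593 and 3 for ZNF706. The highest was at chr4:190021669-190021893 in DUX4L9, with folds of 7.93 and 6.36, followed by chr4:190068419-190068780 in DUX4L8, with 7.12 and 6.23. On chromosome 10 the copies DUX4L25, DUX4L13 and DUX4L15 had 3.44 and 3.53, 3.34 and 3.14, and 3.96 and 3.25. The regions in DUX4L25 and DUX4L13 both lay 446 bp from the TSS of their copy. The chromosome 10 region in DUX4L15, chr10:133760803-133760937, was called for no other ZFP. A DUX4L18 region on chromosome Y, chrY:11322530-11322750, fell outside the D4Z4 kind by its sequence but had 7.32 and 6.77.

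Telomere-type repeats, with at least 5 TTAGGG or CCCTAA hexamers within 100 bp of a summit, accounted for 7 regions. The widest, chr5:10082-11721, ran over 1640 bp at the left end of chromosome 5 with folds of 6.82 and 7.07, and was called for 33 other ZFPs, 29 of them in both replicates. The ends of chromosomes 10, 12, X and 22 had 5.49 and 7.36, 3.29 and 3.18, 3.12 and 4.48, and 2.62 and 2.66. The other 2, in introns of MICAL3 and SERINC2, lay away from the chromosome ends. At MICAL3 the hexamers were set apart by other bases, in a repeat whose best unit was 81 bases. The 31-base stretches had a median of 6 copies at MICAL3 and 3 at SERINC2, against 925 at the chromosome 5 end. These 2 were thus counted by their hexamers and are not plain telomere arrays.

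The 178 satellite-like regions had the lowest median fold after the 45S unit, 2.73, but a median width of 374.5 bp. Satellite-like sequence made up 26.6% of the peaks of replicate 1 (exact 95% interval 23.7 to 29.6) and 31.2% of replicate 2 (27.9 to 34.7), against 0.149% of genome windows. Chromosome 4 held 51 of them, chromosome Y 20, chromosome 10 19 and chromosome 20 16. The 5 highest were all on chromosome Y, led by chrY:10924295-10924443 with 7.33 and 7.96, chrY:11013862-11014156 with 7.17 and 6.58 and chrY:10631183-10631464 with 8.13 and 6.50. The next were chrY:10961168-10961469 with 6.55 and 6.10 and chrY:26653919-26654092 with 6.43 and 5.46. HEK293 lines are known to lack a Y chromosome, and which copies gave these reads was not tested. The widest region of all was chr5:49657661-49660404, 2744 bp with folds of 2.89 and 2.75, followed by chrY:11301662-11303943 with 2282 bp.

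The 69 regions classed under other contigs included some of the highest folds. The contig region printed above, chr14_KI270724v1_random:3263-3389, had 9.65 and 8.65, and its 31-base stretches had a median of 1 copy. The regions chr14_GL000225v1_random:809-961 and chr14_GL000225v1_random:31905-32045 had 8.41 and 8.75 and 6.69 and 7.34. That contig alone held 22 regions. On unplaced contigs, chrUn_KI270743v1:152226-152355 had 9.34 and 7.18, and the 1860-bp region chrUn_KI270744v1:11918-13777 had 3.06 and 4.595. The annotation used here (GENCODE 44) lists no gene on these contigs. A region there could therefore not count as inside a gene or near a TSS, and it has no nearest gene. Of all peaks, 18.2% in replicate 1 and 19.3% in replicate 2 lay off the assembled chromosomes.

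Nearly all regions were also called for another ZFP. A region was called in at least 1 list of a median of 9 of the 35 other ZFPs, with a range of 0 to 35. At least 1 other ZFP had it in both replicates for 408 of 520 regions (78.5%, exact 95% interval 74.7 to 81.9). Sharing differed by kind. Satellite-like regions were called for a median of 21 other ZFPs and telomere-type repeats for 20, against 8 for the 45S unit, 7.5 near chromosome ends, 7 elsewhere on the chromosomes and in the 5S kind, 6 on other contigs and 5 for D4Z4-like regions. Lists of 1 batch have the same mock IP as control, which enters each of these folds, but the labels do not tell the batches.

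**Figure D4:**
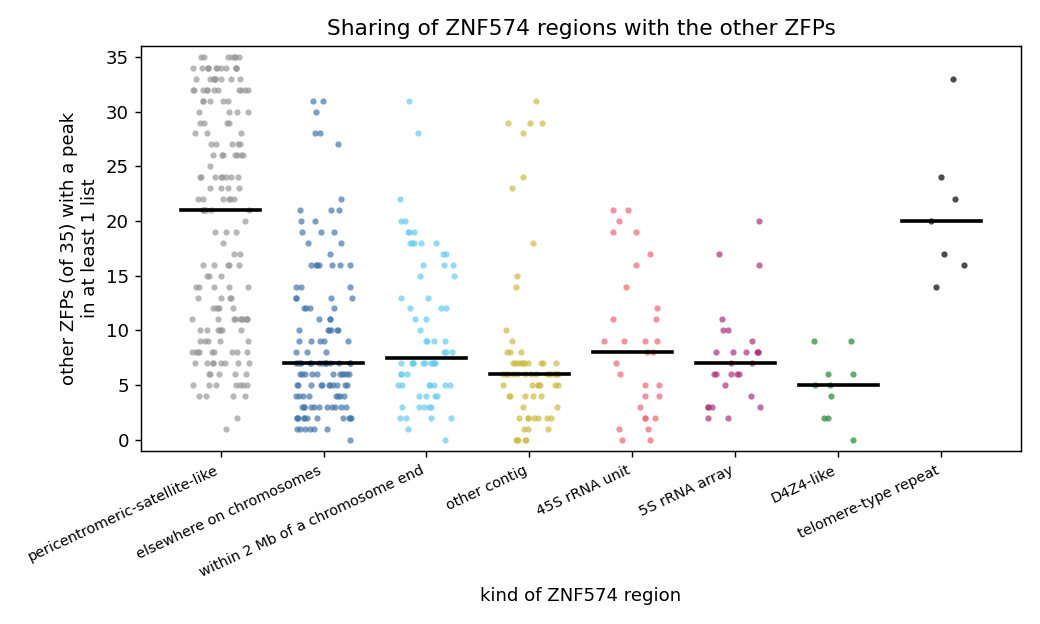
Number of the 35 other ZFPs with a peak in at least 1 list at each ZNF574 region, by kind of region, with 1 point per region and a bar at the median. The medians are 21 for satellite-like regions and 20 for telomere-type repeats, and 5 to 8 for the other kinds.

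The 5 most shared regions were all satellite-like and were called for all 35 other ZFPs, 31 of them in both replicates. They were chr1:143219741-143220695 (folds 4.21 and 3.85), chr1:143222442-143223030 (2.98 and 3.24), chr5:49657661-49660404, chr17:21975848-21976996 (2.74 and 2.86) and chr5:49601540-49602943 (2.40 and 2.48). At the other extreme, 10 regions were in no list of another ZFP. The highest was chr22:12173581-12173701, with 4.91 and 5.17, followed by chr14_GL000225v1_random:59070-59206 with 5.24 and 4.16 and chr14_GL000225v1_random:58102-58210 with 3.83 and 3.98. The next was chr22:49265463-49266043 with 3.63 and 3.68, a 33-base repeat in an exon of an unnamed lncRNA, and then the DUX4L15 region. Although called for no other ZFP, the first had a median of 24 copies in hg38.

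RNF14, a RING-type ubiquitin ligase, shared the most. Its lists of 719 and 827 peaks held 438 of the 520 regions in at least 1 replicate (84.2%), and 284 in both (54.6%), and 73.3% of its own 374 regions were ZNF574 regions. For CISD1 the share in both replicates was 41.7%, for ZNF800 40.6%, for ZNF706 208 of 520 and for GTF3C4 33.8%. Seen from the other side, ZNF574 regions made up 17.3% of 1109 CISD1 regions, 53.3% of 360 ZNF800 regions, 68.3% of 300 ZNF706 regions and 75.5% of 257 GTF3C4 regions. The median over the 35 ZFPs was 15.4% in both replicates. Without satellite-like regions, RNF14 shared 41.5% and CISD1 39.2% in both replicates, and ZNF706 25.4%, GTF3C4 19.01% and ZNF800 14.3%. CISD1 replicate 1 was the longest of the 72 lists, with 8702 peaks.

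These 5 ZFPs, the highest by the share in both replicates, all had low peaks on the ZNF574 coding exon. APEX2, 21st in sharing with 14.2%, had 1 too. ZNF593, next after GTF3C4 with 33.3%, had none. By the share in at least 1 list, MAZ (66.5%) and ZNF593 (63.5%) were above ZNF800 (63.3%) and GTF3C4 (58.3%), and MAZ had no such peak either. The part of the exon peaks in the sharing was not tested. Without all 6 ZFPs with a peak on that exon, 56.3% of the 520 regions were found in both replicates of another ZFP, a setting that was chosen after seeing the data. No peak of the ZNF574 lists lay on a coding exon of RNF14, CISD1, ZNF800, ZNF706 or GTF3C4.

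Where a region overlapped a peak in both RNF14 lists, the folds were of like size. Counted in this way there were 285 regions, against 284 in the sharing count above. Over the 285 the median lower fold was 3.18 for ZNF574 and 3.09 for RNF14. In 183 the ranges of the replicates overlapped, in 42 both ZNF574 folds were above both RNF14 folds, and in 60 both were below. At chr14_GL000225v1_random:809-961 RNF14 had 5.30 and 7.59 and ZNF706 6.66 and 6.70, beside 8.41 and 8.75 for ZNF574. At the EHMT1 region RNF14 replicate 1 had 8.09, while RNF14 replicate 2 and both lists of ZNF706 and ZNF800 had no peak.

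**Figure D5:**
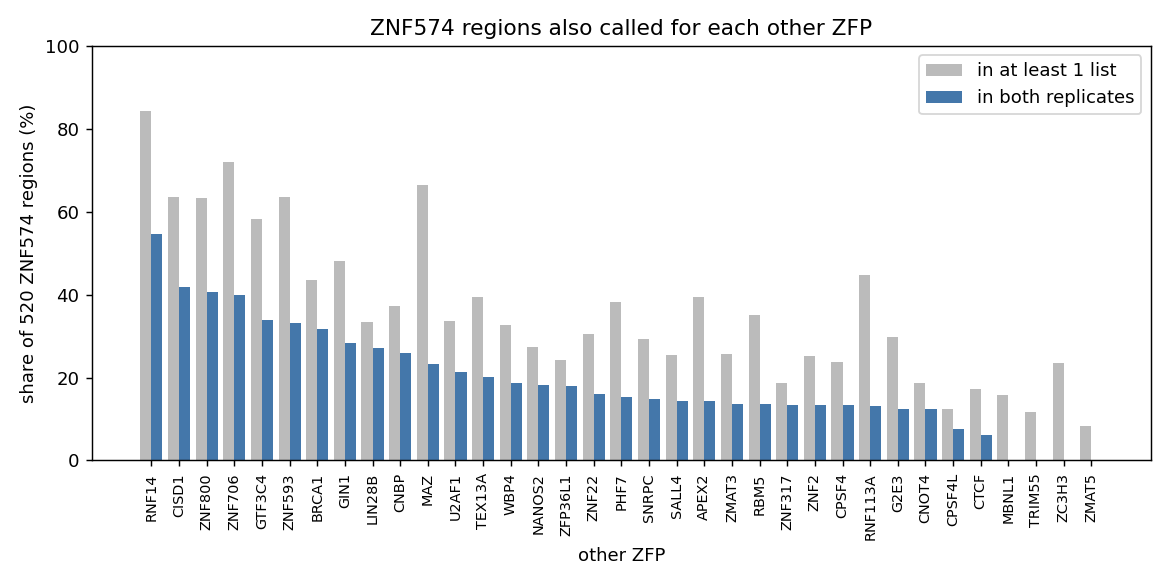
Share of the 520 ZNF574 regions called for each of the 35 other ZFPs, in at least 1 list (grey) and in both replicates (blue), in percent, ordered by the blue bars. RNF14 leads with 84.2% and 54.6%, and the median ZFP has 15.4% in both replicates.

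ZNF574 was compared with the other ZFPs on 6 measures by an exact two-sided permutation test, in which each ZFP in turn was set against the mean of the rest, with Benjamini-Hochberg adjustment over the 6. No measure passed, and the smallest p that 36 ZFPs allow is 0.0278 before adjustment, so a single measure could not have passed. The overlap between replicates was the 3rd highest of 36, with 70.9% of the shorter list overlapping the other replicate against a mean of 45.4% (SD 19.04 over 35 ZFPs, exact permutation test, adjusted p = 0.5). The median peak width was the 33rd, 195 bp ± 8.49 (SD, n = 2) against 263 bp (exact permutation test, adjusted p = 0.5). Of the regions found in both replicates, 78.5% were shared with another ZFP against a mean of 89.9% over the 33 others that had such regions (exact permutation test, adjusted p = 0.5).

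Peaks within 1 kb of a TSS made up 12.6% ± 1.40 (SD, n = 2) against 33.9%, with an adjusted p of 0.875 in the exact permutation test. The other ZFPs ranged from 6.93% to 74.5% on that measure. Satellite-like peaks made up 28.9% ± 3.29 (SD, n = 2) against 26.9% (exact permutation test, adjusted p = 0.972). The mean log2 number of peaks per list was 9.68 against 9.44 (exact permutation test, adjusted p = 0.933).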

How the data were processed

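Cut&Run libraries of ZNF574 (replicates 1 and 2) and of 35 other ZFPs were compared as 72 peak lists. According to the submitters' processing notes and the study's methods, the authors used Trimmomatic 0.36 for trimming, Bowtie2 2.3.5.1 for alignment to hg38, Picard 0.1.8 against PCR duplicates and MACS2 2.2.7.1 for narrow peaks. Each library was set against its batch's V5 mock IP, at a false discovery rate of 0.05. Lists of a batch therefore share a control. The sources used here give no mapping-quality filter. The deposited fold is a ratio of the library over the mock IP at the summit. The deposited files also hold the −log10 p and −log10 q of each peak, and a score that the authors' caller derives from the −log10 q.

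Peaks that shared at least 1 bp were merged, and a region was kept when it held a peak of both replicates. Its fold in a replicate is that of its highest peak. Places and nearest TSSs came from GENCODE 44, and sequences, tandem repeats and copies of 31-base stretches from hg38. Sharing was counted as an overlap of at least 1 bp. Python 3.11.15, numpy 2.4.6, pandas 2.3.3, scipy 1.17.1 and matplotlib 3.10.9 were used, and the steps were tested on simulated data. Intervals are exact binomial 95% intervals and cover counting error only. Replicates came from separate wells of 1 cell line, so their spread may be largely technical.

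Named regions were the 20 highest by the lower fold that were not satellite-like, those within 1 kb of a protein-coding TSS (1 of which is not reported here), the 5 highest called for no other ZFP, the 5 most shared, the 5 widest and the 5 highest satellite-like. Other regions and genes, among them those of the rRNA and D4Z4 arrays, telomere repeats, PTPRN2, BRF1, SMOC2, TTC34 and the second EHMT1 region, were chosen with their values in view. The members, lists and tests were chosen with earlier results of these data known.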

Additional observations from a re-analysis of the deposited data

How the results depend on the processing

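The number of regions found in both replicates fell from 520 to 342 without satellite-like regions. Of all peaks, those within 1 kb of a TSS made up 6.83% at 0.5 kb, 17.4% at 2 kb, 2.69% with protein-coding genes only and 17.7% without satellite-like peaks, and 11.6% to 13.6% with 1 replicate left out. The satellite-like share was 34.4% in peaks found in both replicates, 33.2% at q of at most 0.001, and 26.6% to 31.2% with 1 replicate left out. The replicate overlap was 58.6% where each peak had to cover 50% of the other, and 50.4% as a Jaccard index of covered bases. The share of regions found in both replicates of another ZFP was 98.1% for at least 1 list, 69.2% at 50% overlap and 69.3% without satellite-like regions. In settings chosen after seeing the data it was 72.9% without RNF14 and 56.3% without the 6 ZFPs with peaks on the ZNF574 exon. The median width was 265 bp without satellite-like regions and 195 bp over all peaks, and the median lower fold was 3.78 without satellite-like regions. Nearest genes numbered 473, 300 with protein-coding genes only, 217 in peaks found in both replicates and 315 to 385 with 1 replicate left out.

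The difference in satellite-like share between ZNF574 and the other ZFPs, 1.96 percentage points, turned to −0.00827 over the 30 ZFPs with listed target genes and to −0.13 without replicate 2, within a range of −0.13 to 4.06 over the replicates left out. The cause was not tested. With 1 replicate left out, the difference in TSS share ranged from −24.8 to −17.8 and in width from −85.9 to −50.4 bp. That in log2 peak number ranged from 0.23 to 0.27 in the same settings. Over ZFPs with a mean list length within 2 times that of ZNF574, these differences were −16.99, −46.3 bp and 0.39. Over the 30 ZFPs with listed target genes they were −20.4, −69.7 bp and 0.12. With the replicate number as a block the differences were those of the main setting (25.5, −21.3, 1.96, −11.5, −68.2 and 0.25), since each ZFP has 1 list of each number. The numbers were not shown to pair the libraries: 24 of 36 ZFPs had the longer list in replicate 1. No comparison between ZFPs passed under any alternative, but with so few ZFPs a single measure could not have passed after adjustment, so this says nothing about stability. The other 54 values kept their direction, though some changed in size, such as 316 nearest genes within 10 kb and 406 regions on assembled chromosomes. With 2 replicates, unknown read totals and repeats placed on 1 of several copies, folds near the calling limit and exact positions in repeats are the least certain.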
